A study of Rattus norvegicus with 42 samples.

Results

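The genes described are those of the major histocompatibility complex (MHC) and of antigen processing in the rat retina, across light damage and injection of cerium oxide nanoparticles (nanoceria). All gene rows whose name begins with RT1-, the name of the rat MHC, were taken, 43 rows, together with 10 genes outside that name: B2m, Tap1, Tap2, Tapbp, Psmb8, Psmb9, Psmb10, Nlrc5, Cd74 and Ciita. This gave 53 members of 32623 genes in the file, and 47 of them had enough counts to be tested. The 6 that did not were RT1-M3-2-ps, RT1-M10-2-ps, RT1-M10-3-ps, RT1-M10-4-ps, RT1-M1-1-ps and RT1-P2-ps1, pseudogenes by name, with at most 0.0363 library-scaled counts (CPM, below) in any library. The 47 comprised 2 transactivators, 4 genes of class I assembly, 3 of the immunoproteasome, 2 classical class I rows, 24 other class I rows, the invariant chain and 11 class II rows.

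The study asked how damaging light changes the transcriptome of the retina and whether nanoceria alter that change. PolyA RNA was sequenced from retinas of adult rats, and neither strain nor sex is named by the labels. Control rats were untreated (5 libraries), and light damage rats spent 24 h under light of 15000 lux without injection (7). Vehicle rats received vehicle into the vitreous without light (5) or with that light (5), and nanoceria rats received 1 mM nanoceria by the same route without light (4) or with it (5). The interval between injection, light and dissection is not given in the sources used here.

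Class I molecules show peptides of proteins made inside the cell to CD8 T cells, and natural killer cells read their presence. The peptides are cut by the proteasome, whose catalytic subunits can be exchanged for those of the immunoproteasome, carried into the endoplasmic reticulum by the transporter of Tap1 and Tap2, and loaded with the help of tapasin (Tapbp) onto a heavy chain bound to beta-2 microglobulin (B2m). Class II molecules show peptides of ingested proteins to CD4 T cells. Their empty groove is held by the invariant chain Cd74 until the DM molecule exchanges its remnant for a peptide, a step that the DO molecule tempers. Nlrc5 drives class I genes and Ciita class II genes, and interferons raise both sets in many cells. In the retina, class II is largely a feature of microglia and of immune cells that enter the tissue. The RT1 rows are a family of close copies that differ in number and sequence between rats, so reads can be shared or misplaced among them, and a difference of one row between animals can come from which copies an animal carries.

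Promoter sequences are shown here for members described below. RefSeq windows on the GRCr8 build were found for 37 of 53 members, and the 250 bases before each start were searched on both strands for 4 short motifs. These were the core of the interferon-stimulated response element (GAAA, any 2 bases, then GAAA), the gamma-activated site (TTCNNNGAA), the Y box (CCAAT) and the CRE-like site (TGACG). A match is a description of letters only. Tap1 and Psmb9 are printed because they stand head to head with 408 bases between the genes and share 44 bases of these windows, and because Tap1 was called with light and Psmb9 was not. RT1-N3 is printed as a class I row that was called with light and holds both an interferon core and Y boxes, and RT1-Ba as a class II row. Capitals mark every match of the 4 motifs, on either strand, and each stretch is given 5′ to 3′ on the strand of its gene: Tap1 at chr20:4668544-4668793 (minus strand), Psmb9 at chr20:4668750-4668951 (plus), RT1-N3 at chr20:2666239-2666468 (plus) and RT1-Ba at chr20:4576807-4577056 (plus). All 250 bases of each were searched, but the stretches of Psmb9 and RT1-N3 are printed without their last 48 and 20 bases, which lie inside the annotated gene.
Tap1: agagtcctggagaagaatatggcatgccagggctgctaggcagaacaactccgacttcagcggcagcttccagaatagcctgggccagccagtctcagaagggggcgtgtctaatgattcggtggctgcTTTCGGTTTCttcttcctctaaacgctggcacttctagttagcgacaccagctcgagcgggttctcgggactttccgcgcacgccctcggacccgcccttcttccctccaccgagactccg
Psmb9: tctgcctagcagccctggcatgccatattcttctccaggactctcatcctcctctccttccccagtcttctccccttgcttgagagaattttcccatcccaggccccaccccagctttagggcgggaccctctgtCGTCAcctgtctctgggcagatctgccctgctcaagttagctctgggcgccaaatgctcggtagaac
RT1-N3: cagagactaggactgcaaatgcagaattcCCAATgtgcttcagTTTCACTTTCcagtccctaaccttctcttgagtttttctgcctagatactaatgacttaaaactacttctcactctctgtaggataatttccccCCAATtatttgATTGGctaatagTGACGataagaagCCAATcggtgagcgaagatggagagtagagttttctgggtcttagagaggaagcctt
RT1-Ba: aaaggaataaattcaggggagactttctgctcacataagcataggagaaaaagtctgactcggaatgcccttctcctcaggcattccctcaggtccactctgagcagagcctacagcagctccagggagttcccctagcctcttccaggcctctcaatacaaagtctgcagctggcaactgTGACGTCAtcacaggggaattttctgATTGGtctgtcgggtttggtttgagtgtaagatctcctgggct
The Tap1 stretch holds an interferon core, and the Psmb9 stretch a CRE-like site alone. In RT1-Ba a CRE-like site on each strand, overlapping, lies upstream of a Y box, the order known for class II promoters. Over the members, the Y box stood in all 9 class II promoters found and in 13 of 20 class I promoters, against 34% of 33469 promoters. The interferon core stood in Tap1, Tap2, Tapbp, B2m, Psmb10, RT1-N3, RT1-S2 and RT1-S3, in 3 of 20 class I and 0 of 9 class II promoters, against 3.41% of all promoters. The gamma-activated site (7.67% of all) stood in Psmb8 and RT1-M3-1, and the CRE-like site (18.2% of all) in 5 of 20 class I promoters and in 1 of 9 class II promoters.

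Values are in CPM, the counts of a gene divided by the TMM-scaled library total and set to a common scale. They are comparable between libraries for 1 gene, not between genes, since gene length is not in them. A change is a log2 fold change with its standard error (SE) from edgeR, and a gene was called when its p-value, adjusted over all 18094 genes tested, was under 0.05. Library totals lay between 25158407 and 182162368 counts. The sexes were unevenly spread, with high Y-linked transcripts in 4 of 5 libraries of control but 1 of 5 of vehicle. Light damage 4 and 7, and vehicle 4 and 7, were far more alike than any other libraries (chi-square per gene 10.51 and 4.396, against at least 87.17 for the next pairs). They differ by more than counting noise and were kept as separate libraries, with the value after summing each pair given where it ends a call. The photoreceptor markers Gnat1, Nrl, Pde6b and Arr3 were present in every group, as in retina, and 3 of these 4 were called lower in each of the 3 light comparisons. Gnat1, the rod transducin subunit, was at 11000 ± 3090 CPM in control (SD, n = 5) and 1310 ± 599 in light damage (n = 7), and Nrl, the rod transcription factor, at 376 ± 128 and 104 ± 41.1 CPM. In bulk tissue fewer cells of a type and less RNA per cell cannot be told apart, and a smaller share of photoreceptor RNA moves with every light comparison below; its part in the members' changes was not tested.

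The transporter subunit Tap1 rose and the class II transactivator Ciita fell with light in all 3 settings. Class I rows were called higher without injection and after vehicle. After nanoceria 1 of 2 classical class I rows was called higher (RT1-A2), and of the 24 others 0 higher and 1 lower (RT1-M5). In light damage against control, 15 of 47 tested members were called, 13 higher and 2 lower. That is 31.9% of the members, and 22.5% of all tested genes were called in that comparison (11.9% higher and 10.6% lower). In vehicle plus light against vehicle, 9 members were called, 8 higher and 1 lower, or 19.1% against 16.8% of all genes (9.67% higher and 7.17% lower). In nanoceria plus light against nanoceria, 4 were called, 2 higher and 2 lower, or 8.51% against 13.9% of all genes (8.15% higher and 5.78% lower). The members' median log2 change was 0.23, 0.29 and 0.04 in these comparisons, and that of all genes -0.011, 0.021 and 0.041. After nanoceria the members' share thus lay under that of all genes. The 3 comparisons share no library. Ciita and Tap1 were called in all of them, and Nlrc5, RT1-CE1, RT1-CE4 and RT1-N3 in the uninjected and the vehicle comparison.

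**Figure D1:**
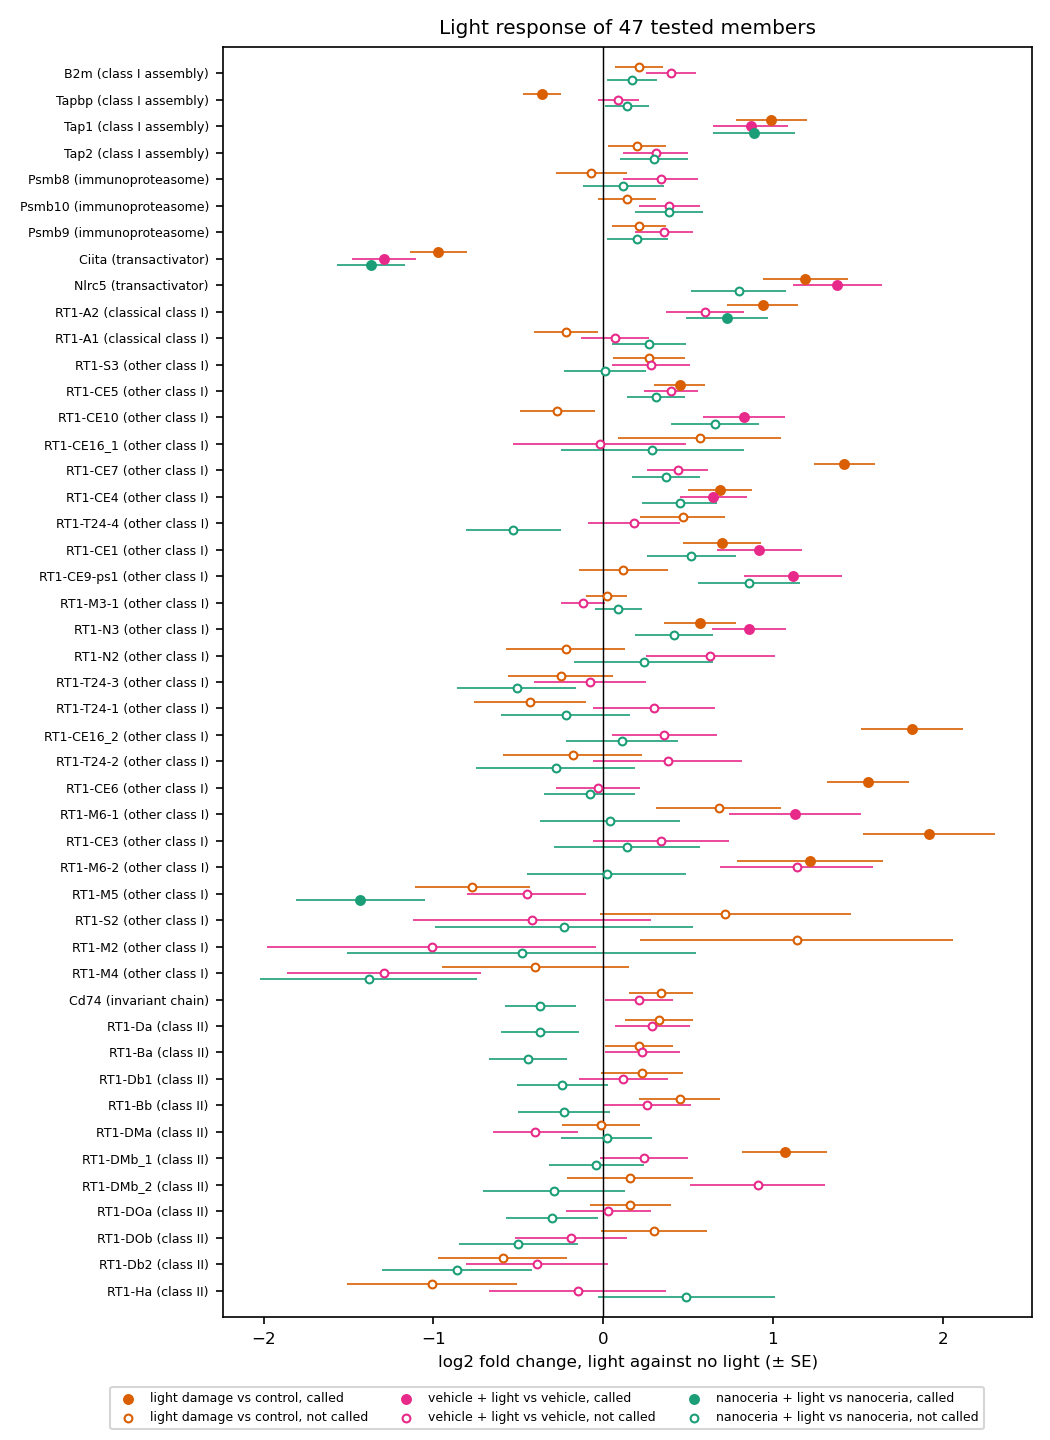
Log2 fold change with light (x axis, bars ± SE) of the 47 tested members (y axis, with their role) without injection, after vehicle and after nanoceria; filled points were called by edgeR. Tap1 lies right of 0 and Ciita left of 0 with filled points in all 3 comparisons, RT1-CE3, RT1-CE6, RT1-CE7 and RT1-CE16_2 are filled without injection only, and the class II rows lie on either side of 0.

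Ciita, the master activator of class II genes, fell with light in every setting. Its level was 18.8, 14.1, 14.8, 16.3 and 16.7 CPM in the control libraries and lay between 5.97 and 11.4 CPM in light damage (median 7.57, n = 7). After vehicle it was 17.4, 25.2, 22.6, 21.5 and 20 CPM without light and 6.09, 7.15, 11.4, 8.84 and 10.1 CPM with light. After nanoceria it was 25.5, 25.5, 19.4 and 26.4 CPM without light and 9.98, 10.4, 8.48, 5.69 and 12.2 CPM with light. No library with light reached the lowest library without it. The fall was 0.97 on the log2 scale without injection (SE 0.17, to 0.509 of the control level, edgeR adjusted p = 9.4e-05). After vehicle Ciita dropped by 1.29 (SE 0.19, adjusted p = 1.17e-05) and after nanoceria by 1.37 (SE 0.20, adjusted p = 1.46e-05, edgeR). All 3 calls held with each library left out in turn. Of the class II rows, whose promoters Ciita is known to act on, none was called lower in any light comparison.

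Nlrc5, the class I transactivator, moved the other way. Control libraries held 1.76, 3.82, 4.89, 5.02 and 6.79 CPM, and light damage libraries 5.09, 7.03, 10.1, 13.7, 10.5, 10.9 and 13.4 CPM. The groups overlapped only through the lowest light damage library, which lay under the highest control library. Vehicle libraries lay close together at 4.52, 4.36, 5.06, 4.87 and 4.26 CPM, and all 5 vehicle plus light libraries stood above them at 10.5, 15.5, 9.88, 12.6 and 11.6 CPM. Nanoceria libraries held 6.79, 4.46, 7.56 and 5.56 CPM, and nanoceria plus light libraries 11.2, 6.9, 11.8, 14 and 9.28 CPM, with 1 of 5 inside the range without light. Nlrc5 rose by 1.19 ± 0.25 (log2, SE) without injection, 2.28-fold, and by 1.38 ± 0.26 after vehicle (edgeR adjusted p = 0.000683 and 0.000361). After nanoceria the change was 0.80 ± 0.28 and did not pass (edgeR adjusted p = 0.0508), while DESeq2 and limma-voom called it (adjusted p = 0.0329 and 0.00821).

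Among the genes of class I assembly, the transporter subunit Tap1 rose in each light comparison while its partner Tap2 did not pass in any by edgeR. Tap1 was at 13.9, 19.3, 27.7, 22.8 and 35 CPM in control and at 34.9, 28, 53.2, 62.1, 51.6, 41.7 and 57.3 CPM in light damage, groups that overlapped at the edge. Vehicle libraries held 24.9, 19, 31.5, 20.4 and 19.3 CPM, all below the vehicle plus light libraries at 31.9, 40.8, 41.5, 49.8 and 45.9 CPM. Nanoceria libraries held 25.5, 16.7, 26.8 and 21.6 CPM, all below the nanoceria plus light libraries at 40.7, 27.4, 52, 48 and 41.6 CPM. The changes were of like size in the 3 settings, 0.99 ± 0.21, 0.87 ± 0.22 and 0.89 ± 0.24 (log2, SE, edgeR adjusted p = 0.000972, 0.00698 and 0.0124). Without nanoceria 2 the last ended (edgeR adjusted p = 0.0628). Tap2 changed by 0.20 ± 0.17, 0.31 ± 0.19 and 0.30 ± 0.20 (edgeR adjusted p from 0.304 to 0.465), and limma-voom called it in light damage (0.38, adjusted p = 0.0468). In deviations from group means over 31 libraries, which share depth and library composition, Tap1 and Tap2 correlated at 0.91.

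B2m, the light chain shared by all class I molecules, was at 529 ± 77.9 CPM in control (SD, n = 5) and 614 ± 105 in light damage (n = 7). It changed by 0.21 ± 0.14, 0.40 ± 0.15 and 0.17 ± 0.15 in the 3 settings and was not called (edgeR adjusted p = 0.287, 0.056 and 0.562), although all 5 vehicle plus light libraries lay above all 5 vehicle libraries. DESeq2 and limma-voom called B2m after vehicle (adjusted p = 0.0408 and 0.016). Tapbp, which bridges the transporter and the empty class I molecule, was called lower with light in the uninjected rats. It was at 82.7 ± 8.05 CPM in control (n = 5) and 64.5 ± 11.2 in light damage (n = 7), with overlapping groups, and changed by -0.36 ± 0.11 (edgeR adjusted p = 0.0224). Leaving out control 4 or 6 ended it (edgeR adjusted p up to 0.0574), as did library size as the scaling and limma-voom (up to 0.114). After vehicle and after nanoceria Tapbp changed by 0.09 ± 0.12 and 0.14 ± 0.13, and the difference between the uninjected and the vehicle response was 0.44 at an unadjusted p of 0.0131 (edgeR adjusted p = 0.652).

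None of the 3 immunoproteasome subunits was called by edgeR in a light comparison. By limma-voom, Psmb9 was called in light damage and after vehicle (adjusted p = 0.0289 and 0.013) and Psmb10 after vehicle (0.0138). Psmb8 was at 25.7 ± 6.24 CPM in control and 24.5 ± 6.5 in light damage, and changed by -0.07 ± 0.21, 0.34 ± 0.22 and 0.12 ± 0.24. Psmb9, whose gene faces Tap1 across the promoters printed above, was at 15.2 ± 3.1 and 17.5 ± 3.72 CPM and changed by 0.21 ± 0.16, 0.36 ± 0.17 and 0.20 ± 0.18. Psmb10 was at 22.8 ± 4.72 and 25.1 ± 4.68 CPM and changed by 0.14 ± 0.17, 0.39 ± 0.18 and 0.39 ± 0.20 (edgeR adjusted p for the 3 genes from 0.151 to 0.87). Psmb9 and Tap1 nonetheless varied together around their group means (correlation 0.85 over 31 libraries). The constitutive subunits that the immunoproteasome replaces were not called either, 0 of 3 in each light comparison.

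**Figure D2:**
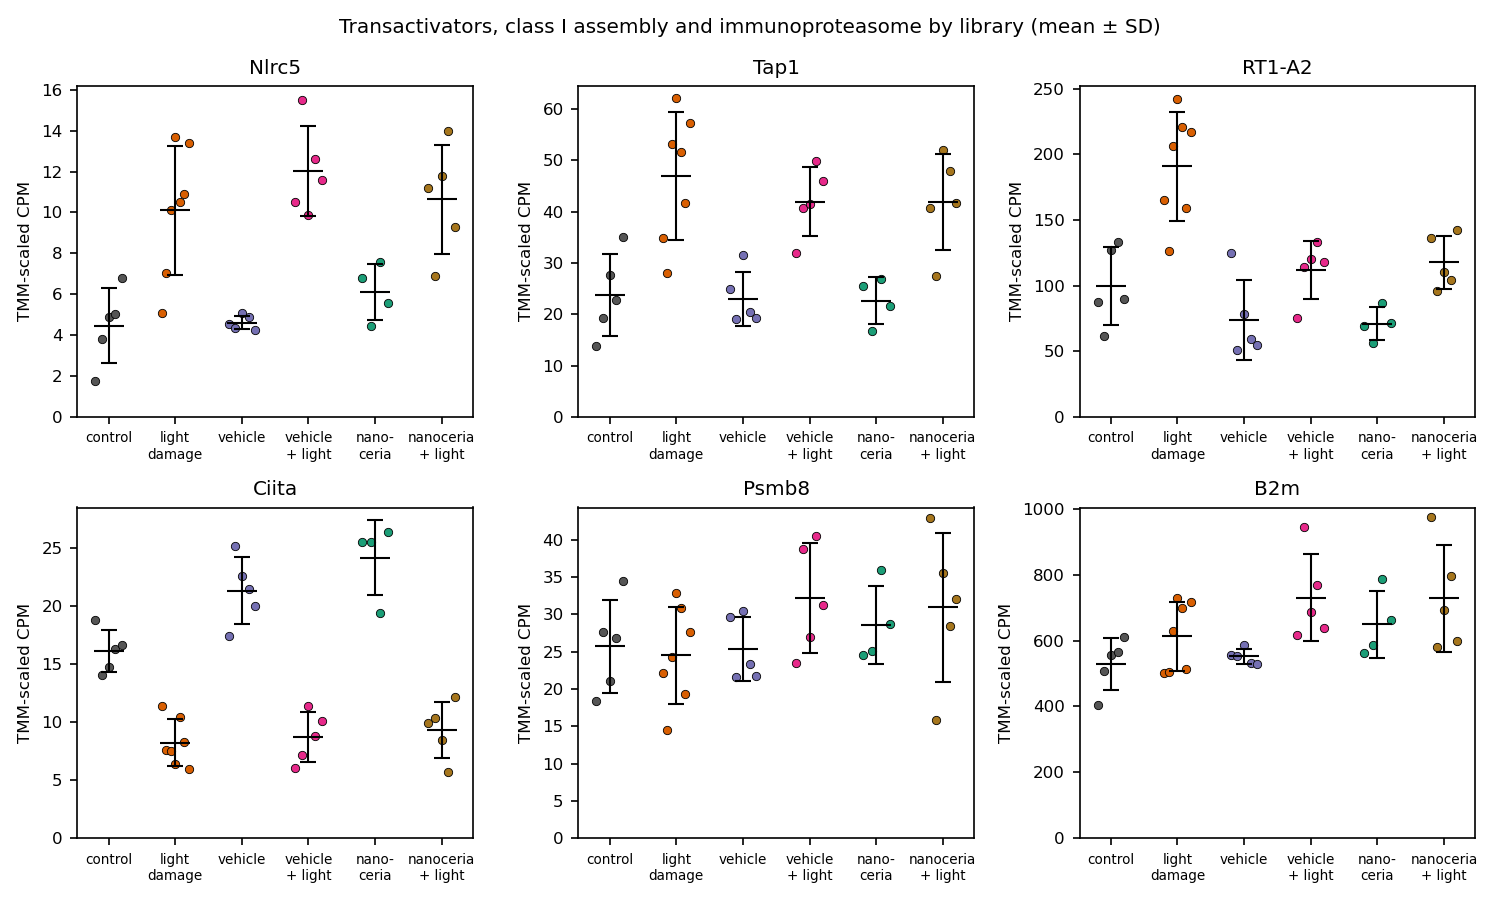
CPM (y axis) of Nlrc5, Tap1, RT1-A2, Ciita, Psmb8 and B2m in each of the 31 libraries (points) by group (x axis), with the mean and SD as lines. Tap1 is higher and Ciita lower with light in each of the 3 settings, with no library with light above 12.2 CPM for Ciita. Nlrc5 was called higher in 2 of the 3 settings, with 1 of 5 nanoceria plus light libraries inside the nanoceria range, and Psmb8 overlaps throughout.

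Of the 2 classical class I rows, RT1-A2 rose with light and RT1-A1 did not pass. RT1-A2 was at 87.5, 61.7, 127, 133 and 90 CPM in control and at 165, 126, 206, 242, 221, 159 and 217 CPM in light damage, so 1 of 7 light damage libraries lay inside the control range. It rose by 0.94 ± 0.21 without injection (1.92-fold, edgeR adjusted p = 0.00176). After vehicle it was at 125, 51.1, 78.1, 59.3 and 54.4 CPM without light and at 74.9, 114, 120, 133 and 118 CPM with light, a change of 0.60 ± 0.23 that did not pass (edgeR adjusted p = 0.0676). The groups overlapped: vehicle 1 lay above 4 of the 5 libraries with light, and vehicle 3 above vehicle plus light 1. DESeq2 and limma-voom called this change (adjusted p = 0.0443 and 0.00356). After nanoceria it was at 69.3, 56, 86.5 and 71.4 CPM without light and at 136, 95.7, 110, 104 and 142 CPM with light, with no overlap and a change of 0.73 ± 0.24 (edgeR adjusted p = 0.0434). It was lost when nanoceria 1, 2 or 5 or nanoceria plus light 1, 3, 4 or 5 was left out (edgeR adjusted p up to 0.15), and with the size factors of DESeq2 or no filter on low counts (up to 0.0556). RT1-A1 was at 52.3 ± 14.4 CPM in control and 44.9 ± 8.18 in light damage and changed by -0.22 ± 0.19, 0.07 ± 0.20 and 0.27 ± 0.22. The 2 rows correlated at 0.94 around their group means, and close copies of this kind can exchange reads.

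Of the other 24 class I rows, 9 were called higher in light damage against control. The 4 with the smallest adjusted p were RT1-CE7, RT1-CE6, RT1-CE16_2 and RT1-CE3, and their levels were highest in the uninjected light damage libraries. RT1-CE3 was at 1.27, 1.36, 1.99, 2.17, 2.13, 1.69 and 1.98 CPM in light damage and at most 0.917 CPM in each of the other 24 libraries. RT1-CE6 was at 2.79, 2.55, 3.85, 4.2, 4.59, 3.38 and 4.03 CPM in light damage and at most 1.66 CPM elsewhere. For these rows all 7 light damage libraries lay above all 24 others, including the 10 libraries with light after an injection. The share of all genes with such a separation was not counted. The rows were picked by their adjusted p in light damage against control, which favours separation from the control libraries. RT1-CE7 was at 43.2, 36.9, 59, 71.1, 64.2, 46.2 and 63.6 CPM in light damage, where 6 of 7 libraries lay above the highest other library at 37.4 CPM. RT1-CE16_2 was at 1.66, 4.29, 5.9, 6.4, 6.83, 5.1 and 6.81 CPM in light damage, where light damage 1 alone lay within the range of the others (at most 1.94 CPM). Other rows shared this in part: 6 of 7 light damage libraries lay above all 24 others for RT1-A2, 5 of 7 for RT1-CE4 and 4 of 7 for RT1-CE5.

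Against control these 4 rows rose 3.79-fold (RT1-CE3, 1.92 ± 0.39, edgeR adjusted p = 0.000502), 2.96-fold (RT1-CE6, 1.56 ± 0.24, 2.12e-05), 2.68-fold (RT1-CE7, 1.42 ± 0.18, 1.04e-06) and 3.53-fold (RT1-CE16_2, 1.82 ± 0.30, 5.47e-05). RT1-CE16_2 has a second row of the same name, RT1-CE16_1, at a higher level. With both rows summed the change was 0.73 ± 0.47 and the call ended (edgeR adjusted p = 0.301). After vehicle the same rows changed by 0.34 ± 0.40, -0.03 ± 0.25, 0.44 ± 0.18 and 0.36 ± 0.31, and after nanoceria by 0.14 ± 0.43, -0.08 ± 0.27, 0.37 ± 0.20 and 0.11 ± 0.33, with no call. The main edgeR test of the difference between the uninjected and the vehicle response called none of them at the adjusted threshold. RT1-CE6 came nearest, with an interaction of -1.59 ± 0.34, the response after vehicle minus that without injection (unadjusted p = 7.95e-05, edgeR adjusted p = 0.0853). RT1-CE7 differed by -0.98 ± 0.25 (unadjusted p = 0.000574), RT1-CE16_2 by -1.46 ± 0.43 (unadjusted p = 0.00201) and RT1-CE3 by -1.58 ± 0.55 (unadjusted p = 0.00784), with edgeR adjusted p of 0.254, 0.387 and 0.576. In all, 0 of 47 members were called in this interaction by edgeR (0.0442% of all genes were), and 8 had an unadjusted p under 0.05, or 17% against 5.85% of all genes. DESeq2 called 2 members, RT1-CE6 and RT1-CE7 (adjusted p = 0.00272 and 0.0361), and 0.222% of all genes. Limma-voom called 4 members, RT1-CE6, RT1-CE7, RT1-CE16_2 and RT1-CE3 (adjusted p = 0.00224, 0.00722, 0.0123 and 0.0386), and 0.652% of all genes. With the replicate number as a block, edgeR called RT1-CE6 (adjusted p = 0.029) and 0.0276% of all genes. Without vehicle 1 it called 1 member and 0.116%. Whether the animals of the uninjected light damage group differ from the others in the copies they carry was not tested.

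**Figure D3:**
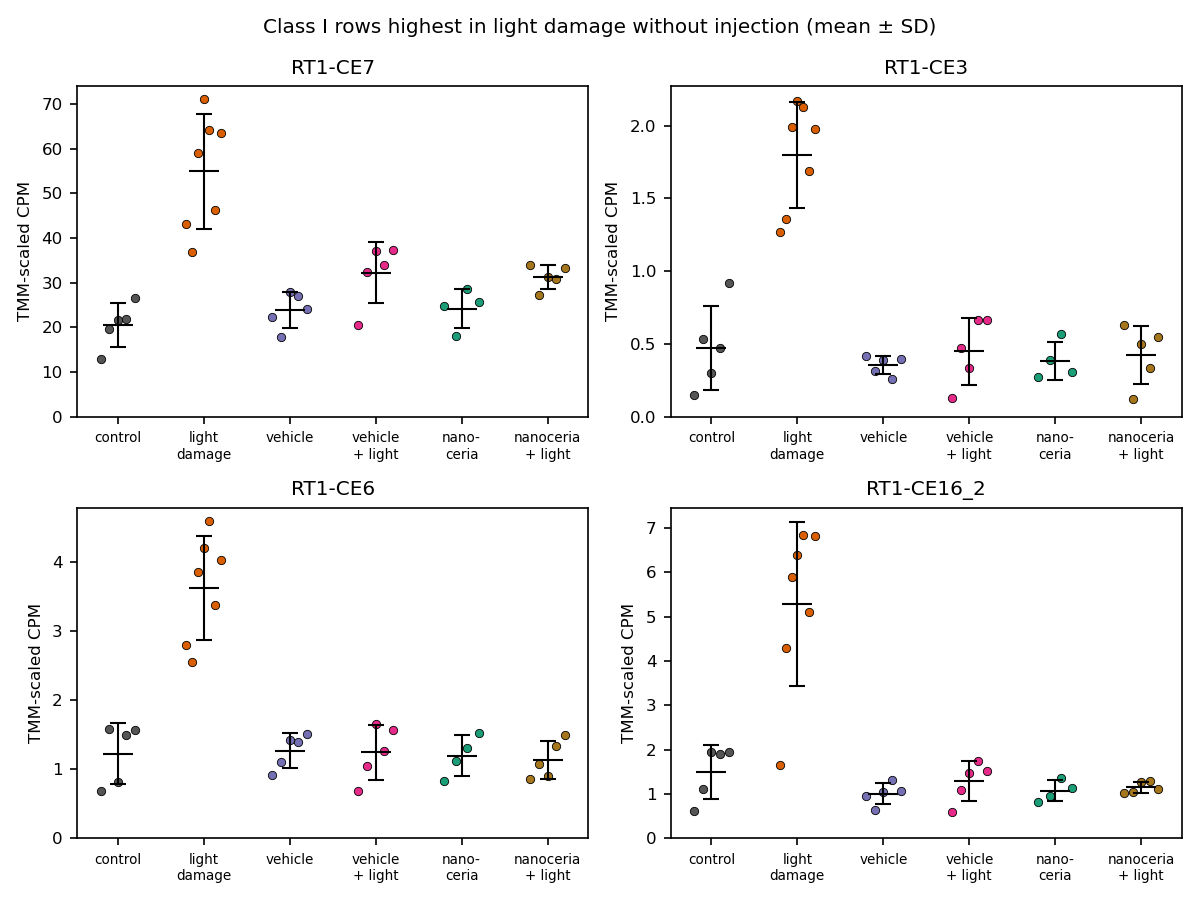
CPM (y axis, from 0) of RT1-CE7, RT1-CE3, RT1-CE6 and RT1-CE16_2 in each library (points) by group (x axis), with mean and SD as lines. The 7 light damage libraries of RT1-CE3 and RT1-CE6 lie above all other libraries. The vehicle plus light libraries reach at most 0.666 CPM for RT1-CE3 and 1.66 CPM for RT1-CE6. The nanoceria plus light libraries reach at most 0.628 and 1.49 CPM.

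Other class I rows moved in more than one setting. RT1-CE1 was at 14.1 ± 6.66 CPM in control and 22.9 ± 5.14 in light damage, and at 13.2 ± 1.7 in vehicle and 24.8 ± 7.26 in vehicle plus light. It rose by 0.70 ± 0.23 and 0.92 ± 0.25 (edgeR adjusted p = 0.027 and 0.00976), and the first of these was lost when control 1, 2 or 4 or light damage 5 was left out (edgeR adjusted p up to 0.0889) and with near-identical libraries summed (0.0535). RT1-CE4 rose from 28.1 ± 6.75 to 45.1 ± 9.53 CPM without injection (0.69 ± 0.19, edgeR adjusted p = 0.00944). After vehicle it rose from 20.6 ± 5.61 to 32.4 ± 6.76 CPM (0.65 ± 0.20, edgeR adjusted p = 0.0259), which was lost when vehicle 2, 4 or 7 or vehicle plus light 4 or 6 was left out (up to 0.0807) and with the near-identical libraries summed (0.0793). RT1-N3, whose promoter is printed above, rose from 6.14 ± 0.869 to 11.2 ± 2.89 CPM after vehicle with no overlap (0.86 ± 0.22, edgeR adjusted p = 0.00639). Without injection it rose from 7.47 ± 1.72 to 11.1 ± 2.93 CPM (0.57 ± 0.21, edgeR adjusted p = 0.0445), which was lost when control 1, 2, 4 or 5 or light damage 3, 4, 5 or 7 was left out (up to 0.143), with the near-identical libraries summed (0.104) and with no filter on low counts (0.0532).

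The remaining calls of the main edgeR fit were made in 1 setting each. RT1-CE5, among the highest class I rows at 45.7 ± 11 CPM in control and 62.3 ± 10.5 in light damage, rose by 0.45 ± 0.15 (edgeR adjusted p = 0.0296), and changed by 0.40 ± 0.16 and 0.31 ± 0.17 after vehicle and nanoceria. Leaving out control 1, 2 or 5 or light damage 4, 5 or 7 ended this call (up to 0.116), and so did summing the near-identical libraries (0.0691). RT1-M6-2, at under 1 CPM, rose by 1.22 ± 0.43 in light damage (edgeR adjusted p = 0.0386), which was lost when control 1, 2 or 4 or light damage 4, 5 or 7 was left out (up to 0.106) and with the near-identical libraries summed (0.0701). RT1-CE10 had another course: at 34.7 ± 13.7 CPM in control and 28.7 ± 6.06 in light damage it changed by -0.27 ± 0.22, but after vehicle it rose from 29.7 ± 2.9 to 52.9 ± 15.6 CPM (0.83 ± 0.24, edgeR adjusted p = 0.0158). Without vehicle plus light 4 that call ended (0.0513). The pseudogene row RT1-CE9-ps1 had a like course, 0.12 ± 0.26 without injection and 1.12 ± 0.29 after vehicle (edgeR adjusted p = 0.00611), from 11.8 ± 3.28 to 25.7 ± 6.04 CPM. After nanoceria RT1-CE10 changed by 0.66 ± 0.26 and RT1-CE9-ps1 by 0.86 ± 0.30, both without overlap of the groups and not called (edgeR adjusted p = 0.0885 and 0.0578). Limma-voom called both (adjusted p = 0.0275 and 0.0063), and DESeq2 called RT1-CE9-ps1 (adjusted p = 0.0394). With the replicate number as a block, or on the compared groups alone, edgeR called both (adjusted p up to 0.0411). The responses of RT1-CE10 and RT1-CE9-ps1 after vehicle and without injection differed by 1.10 (unadjusted p = 0.00205) and 1.00 (unadjusted p = 0.0146), neither past the adjusted threshold (edgeR adjusted p = 0.387 and 0.67). Fitted on control and light damage alone, RT1-CE1, RT1-CE5 and RT1-N3 were not called (edgeR adjusted p up to 0.0917).

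RT1-M6-1 rose by 1.13 ± 0.39 after vehicle, from 0.674 ± 0.118 to 1.48 ± 0.501 CPM with no overlap (edgeR adjusted p = 0.0445). It was lost when any 1 of the 5 vehicle libraries or vehicle plus light 1, 3 or 4 was left out (up to 0.111), and with a term for sex, no filter or the near-identical libraries summed (up to 0.092). RT1-M5, a row near the detection limit, fell after nanoceria from 0.286 ± 0.0777 to 0.105 ± 0.0432 CPM with no overlap (-1.43 ± 0.38, edgeR adjusted p = 0.0105). RT1-S3, a class I gene outside the classical locus and the second highest RT1 row by mean log2 CPM, was not called with light: it was at 92.3 ± 24 CPM in control and 111 ± 28.8 in light damage and changed by 0.27 ± 0.21, 0.28 ± 0.23 and 0.01 ± 0.24. RT1-M3-1, whose mouse counterpart presents formylated peptides, was not called (0.02 ± 0.12, -0.12 ± 0.13 and 0.09 ± 0.14). Summed over the class I rows, the level was 478 ± 114 CPM in control and 676 ± 143 in light damage, 439 ± 58 in vehicle and 591 ± 130 in vehicle plus light, and 462 ± 75.7 in nanoceria and 583 ± 65 in nanoceria plus light.

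Class II rows showed no call with light by edgeR other than RT1-DMb_1 in light damage, and limma-voom called RT1-DMb_2 after vehicle (adjusted p = 0.00895). Cd74 was at 136 ± 32.9 CPM in control, 172 ± 45.7 in light damage, 164 ± 22.1 in vehicle and 190 ± 30.5 in vehicle plus light, and changed by 0.34 ± 0.19 and 0.21 ± 0.20. After nanoceria it went from 241 ± 51.4 to 186 ± 55 CPM with light (-0.37 ± 0.21), and none of the 3 passed (edgeR adjusted p = 0.227, 0.549 and 0.285). RT1-Da and RT1-Ba, alpha chains of the 2 classical class II molecules, changed by 0.33 ± 0.20 and 0.21 ± 0.20 without injection, by 0.29 ± 0.22 and 0.23 ± 0.22 after vehicle and by -0.37 ± 0.23 and -0.44 ± 0.23 after nanoceria. The beta chain RT1-Db1 changed by 0.23 ± 0.24, 0.12 ± 0.26 and -0.24 ± 0.27. After nanoceria 9 of 11 class II rows had a negative sign with light, yet no member was called in the test of whether light acted differently after nanoceria than after vehicle (0 of 47 by edgeR, DESeq2 and limma-voom, 0% of all genes by edgeR). At an unadjusted p under 0.05 there were 3 members, or 6.38% against 2.29% of all genes. In that test RT1-Ba differed by -0.67 (unadjusted p = 0.0439) and RT1-Da by -0.66 (unadjusted p = 0.0478), both at an edgeR adjusted p of 1.

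Without light, the invariant chain and 2 class II rows were higher in nanoceria than in untreated control, a contrast that includes the injection. Of 47 members 3 were called, all higher: Cd74, RT1-Da and RT1-DMb_1. That is 6.38% of the members, against 2.46% of all genes, and 1.73% of all genes were called higher. Cd74, the invariant chain, was at 85.8, 123, 162, 166 and 146 CPM in control and at 273, 218, 293 and 181 CPM in nanoceria, where each of the 4 libraries lay above each control library. It rose by 0.82 ± 0.21 (1.77-fold, edgeR adjusted p = 0.0339). RT1-Da was at 35.6, 41.5, 64.2, 64.8 and 55.4 CPM in control and at 109, 87.8, 113 and 65.5 CPM in nanoceria, again without overlap, and rose by 0.84 ± 0.23 (edgeR adjusted p = 0.0465). The beta chain of the DM molecule, RT1-DMb_1, rose by 1.04 ± 0.28 (edgeR adjusted p = 0.0406).

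Of the 11 class II rows, 10 had a positive sign and 7 had an unadjusted p under 0.05, as had 14.2% of all genes. In 5 of the 11 every nanoceria library lay above every control library, as in 4.24% of all genes. Not called by the main edgeR fit were RT1-Ba, from 42 ± 11 to 74.2 ± 17.3 CPM (0.82 ± 0.23, edgeR adjusted p = 0.0518), RT1-Bb, from 22.3 ± 6.17 to 40.2 ± 7.77 CPM (0.85 ± 0.27, adjusted p = 0.0953), and RT1-DOa (0.89, adjusted p = 0.0755). RT1-Db1 went from 26.5 ± 8.51 to 43.1 ± 8.58 CPM (0.70 ± 0.27, edgeR adjusted p = 0.204). Ciita changed by 0.59 ± 0.19 with no overlap and did not pass (edgeR adjusted p = 0.113). DESeq2 called RT1-Ba, RT1-Bb and RT1-DOa as well (adjusted p up to 0.034), and limma-voom those, RT1-Db1 and Ciita (up to 0.0388). On the class I side RT1-A1 and RT1-A2 changed by -0.60 ± 0.22 and -0.49 ± 0.24, B2m by 0.30 ± 0.15, Nlrc5 by 0.45 ± 0.27, Tap1 by -0.07 ± 0.24, Tap2 by -0.11 ± 0.20, Tapbp by -0.18 ± 0.13, Psmb8 by 0.15 ± 0.24, Psmb9 by 0.01 ± 0.18 and Psmb10 by -0.19 ± 0.20, with no call.

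The 3 calls were lost when single libraries were left out. Cd74 lost its call without control 1 or 2 or nanoceria 1, 2 or 3 (edgeR adjusted p up to 0.132), RT1-Da without control 1, 2 or 4 or nanoceria 1, 2 or 3 (up to 0.153) and with the near-identical libraries summed (0.06), and RT1-DMb_1 without control 1, 2, 4 or 5 or nanoceria 1, 2 or 3 (up to 0.158). The number of members called was 0 without control 1, control 2, nanoceria 1, nanoceria 2 or nanoceria 3, 1 without control 4, and 5 without nanoceria 5. The share of all genes called lay between 1.12% (without nanoceria 1) and 2.37% (without nanoceria 5). A term for sex ended the calls of RT1-Da and RT1-DMb_1, and a fit of the compared groups alone those of Cd74 and RT1-Da (edgeR adjusted p up to 0.0795). The term for sex added RT1-DOa (0.0395), and the compared groups alone added Ciita and RT1-DMb_2 (0.0368 and 0.0192). Library size as the scaling added RT1-Ba and RT1-DOa (0.0322 and 0.0465), and the size factors of DESeq2 added RT1-Ba (0.0385, all edgeR adjusted p). With no filter on low counts RT1-Da was not called (0.0574). With the replicate number as a block, Cd74, RT1-Da and RT1-DMb_1 all lost their call (edgeR adjusted p = 0.12, 0.154 and 0.122).

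Markers of immune cells moved with the class II rows in this contrast. Of 9 microglia and macrophage markers 7 were called higher, among them Aif1 (1.13 ± 0.21), Cx3cr1 (1.04 ± 0.24) and Ptprc (1.39 ± 0.26), which other leukocytes carry too. Tmem119 (0.32 ± 0.21) and Cd68 (-0.13 ± 0.34) were not called. The summed level of the 9 markers lay between 156 and 212 CPM in control and between 248 and 389 CPM in nanoceria. Of 8 T cell markers 3 were called higher (Cd3e, Cd3d and Cd2). Cd4, which rat macrophages also carry, made up 80.8% of their summed level in control and 76.3% in nanoceria, at 10.8 to 18.8 and 18.7 to 30.3 CPM, and was not called (0.78 ± 0.23, edgeR adjusted p = 0.0661). The other 7 summed to 2.99 to 4.29 CPM in control and 5.36 to 12.8 CPM in nanoceria. Without nanoceria 3 the calls of Cd3e, Cd3d and Cd2 ended, and without nanoceria 1 those of Cx3cr1 and Cd2 (edgeR adjusted p up to 0.205). Cd2 lost its call without control 1, 2, 4 or 5 too. Of 6 dendritic cell markers 2 were called, Xcr1 and Clec9a, with sums of 8.43 to 11.1 and 11.7 to 15.1 CPM. Of 4 natural killer cell markers Gzmb was called (sums 0.765 to 1.18 and 1.27 to 2.3 CPM), but not without control 1, 4 or 5 or nanoceria 2 or 3 (edgeR adjusted p up to 0.121), and of 4 B cell markers none (0.574 to 0.765 and 0.799 to 1.44 CPM). No marker of these 5 lists was at 0 in every library. Around the group means, over all 31 libraries, the mean of the microglia markers correlated with Cd74 at 0.80, RT1-Da at 0.82, RT1-Ba at 0.79 and RT1-DMb_1 at 0.80, but with Ciita at -0.08 and Tap1 at 0.30. These correlations describe libraries that share depth and composition. The part of microglia or lymphocyte RNA in the class II changes was not tested.

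**Figure D4:**
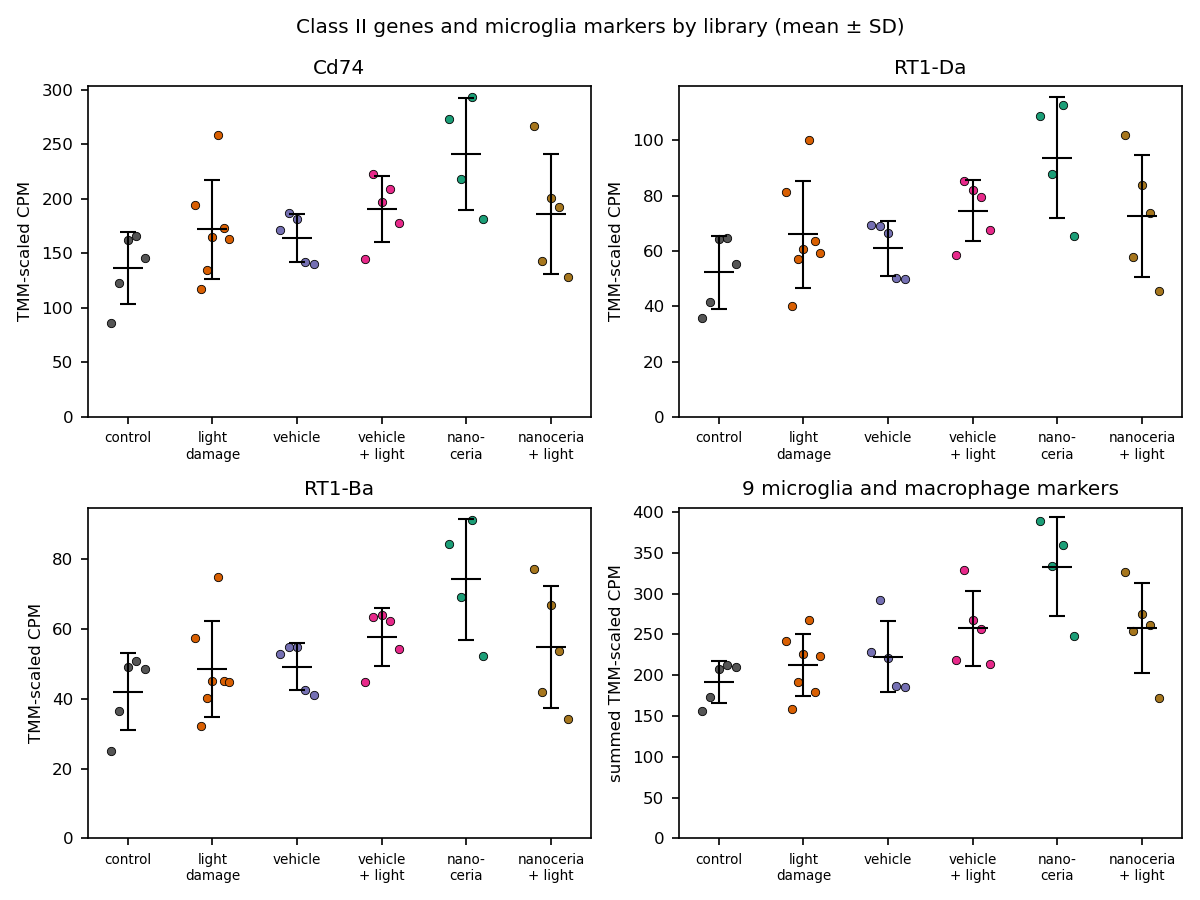
CPM (y axis, from 0) of Cd74, RT1-Da and RT1-Ba and the summed CPM of 9 microglia and macrophage markers in each library (points) by group (x axis), with mean and SD as lines. The 4 nanoceria libraries lie above the 5 control libraries in all 4 panels, and nanoceria 5 is the lowest of the 4.

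The matched contrasts for the particle itself, nanoceria against vehicle without and with light, gave no call by edgeR. In nanoceria against vehicle, both injected and without light, edgeR called 0 of 47 members and 0% of all genes, and 5 members had an unadjusted p under 0.05, or 10.6% against 5.64% of all genes. DESeq2 called 0 members and limma-voom 6, against 0.222% and 8.21% of all genes. Those 6 were Cd74, RT1-Ba, RT1-Bb, RT1-Da, RT1-Db1 and RT1-DMb_2, all higher in nanoceria (limma-voom adjusted p from 0.00342 to 0.0139). Cd74 differed by 0.56 ± 0.21 (unadjusted p = 0.0153, edgeR adjusted p = 0.641), RT1-Da by 0.62 ± 0.23 and RT1-Ba by 0.59 ± 0.23. In vehicle against control edgeR called 0 of 47 members and 0.0221% of all genes, and 6 members had an unadjusted p under 0.05, or 12.8% against 8.08% of all genes. DESeq2 called 0 members and limma-voom 5, against 0.288% and 12.2% of all genes. Cd74 differed there by 0.27 ± 0.20, RT1-Da by 0.22 ± 0.22 and Ciita by 0.41 ± 0.18. These contrasts share control or nanoceria libraries with the one above, so their values are given side by side only. With light, nanoceria plus light against vehicle plus light, edgeR called 0 of 47 members and 0% of all genes, 2 members had an unadjusted p under 0.05 (4.26% against 1.42% of all genes), and DESeq2 and limma-voom called 0. There Tap1 differed by 0.00 ± 0.22, Nlrc5 by -0.17 ± 0.26, Ciita by 0.10 ± 0.18, B2m by 0.00 ± 0.15, RT1-A2 by 0.07 ± 0.23, Cd74 by -0.03 ± 0.20 and RT1-Da by -0.04 ± 0.22.

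The 2 rows named RT1-DMb show how copies bear on these values, since the RefSeq table of the GRCr8 build lists 1 such gene. In 24 of 31 libraries the first row held 45.1% to 51.6% of their summed level. It held 68.3% in light damage 3 and nanoceria plus light 1 and 69.1% in vehicle plus light 3, and 83.5%, 91.8%, 83.8% and 85.3% in light damage 4, light damage 7, vehicle 2 and vehicle 4. Vehicle 7, nearly identical to vehicle 4 over all genes, held 48.6%. The split thus varied within groups, so the test of the sum is given too. Summed, RT1-DMb rose by 0.67 ± 0.17 in light damage against control (edgeR adjusted p = 0.00588) and by 0.98 ± 0.20 in nanoceria against control (0.00628). It changed by 0.52 ± 0.19 with light after vehicle (0.0544), by -0.16 ± 0.20 with light after nanoceria (0.671) and by 0.68 ± 0.20 in nanoceria against vehicle (unadjusted p = 0.00177, edgeR adjusted p = 0.383).

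**Figure D5:**
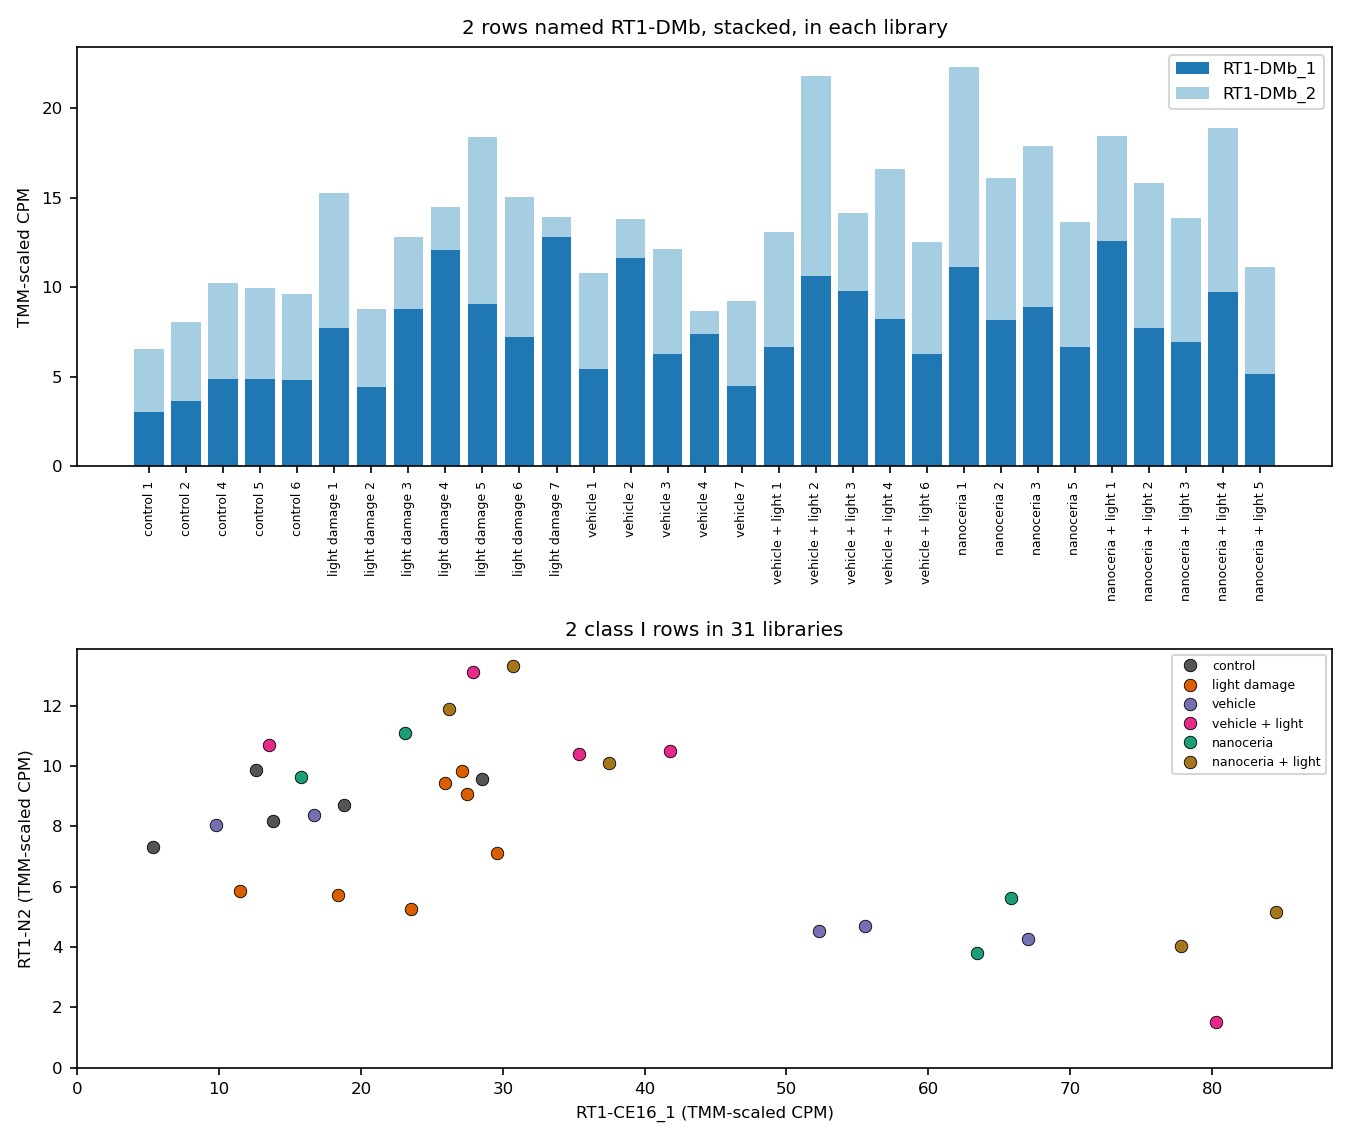
Upper panel: CPM of the 2 RT1-DMb rows, stacked (y axis), in each library (x axis); lower panel: CPM of RT1-N2 (y axis) against RT1-CE16_1 (x axis) in the 31 libraries, coloured by group. The second RT1-DMb row is small in light damage 4 and 7 and vehicle 2 and 4, and 8 libraries with RT1-CE16_1 of at least 52.3 CPM hold 5.62 CPM or less of RT1-N2.

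Some class I rows also varied within groups. The libraries were ordered by RT1-CE16_1, the cut was made on that order, and RT1-N2 and RT1-S2 were set beside it. This is a description of these data, and its cause was not tested. RT1-CE16_1 lay between 52.3 and 84.5 CPM in 8 libraries, namely nanoceria plus light 2 and 4, vehicle plus light 3, vehicle 3, 4 and 7, and nanoceria 1 and 5. In the other 23 it lay between 5.33 and 41.8 CPM. In those 8, RT1-N2 was at 1.53 to 5.62 CPM and RT1-S2 at 0.145 to 0.656 CPM, and in the other 23 at 5.27 to 13.3 and 0 to 0.178 CPM. All 12 uninjected libraries were among the 23. RT1-CE16_1 was not called by edgeR in any comparison, and limma-voom called it higher in vehicle than in control (1.56, adjusted p = 0.0405). Beyond these, RT1-Db2, RT1-Ha, RT1-M2, RT1-M4, RT1-M6-2 and RT1-S2 varied more than 10-fold within a group or fell to 0, at under 1 CPM, so their values are uncertain.

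Other genes of the pathway, which are not members, moved with light in both directions. Whether they acted on the members was not tested. Of 11 tested genes of interferon signalling, 7 were called higher in light damage, 6 after vehicle and 3 after nanoceria, with none lower and a median log2 change of 0.49, 0.35 and 0.32. The shares of all genes called higher were 11.9%, 9.67% and 8.15%. Irf9, a factor that binds interferon response elements, rose by 1.70 ± 0.13, 1.54 ± 0.14 and 1.53 ± 0.15, and the kinase Jak2 by 0.80 ± 0.11, 0.60 ± 0.12 and 0.44 ± 0.13 (all edgeR adjusted p of 0.0171 or less). The interferon genes Ifng and Ifnb1 had too few counts to be tested. Among 7 factors that sit on class II promoters, Nfyb, a subunit that binds the Y box, fell in each setting (-0.61 ± 0.07, -0.74 ± 0.08 and -0.63 ± 0.08), and Creb1 rose after vehicle and after nanoceria (0.36 ± 0.08 and 0.31 ± 0.08). Of 6 genes of class II loading and the lysosome, the protease Ctsl, the reductase Ifi30 and Cd63 rose in light damage (0.56 ± 0.16, 0.56 ± 0.12 and 0.64 ± 0.13), Cd63 alone after vehicle (0.42 ± 0.14) and none after nanoceria. Jak2 after nanoceria lost its call without nanoceria 5 or nanoceria plus light 4 (edgeR adjusted p up to 0.0708), and Cd63 after vehicle when vehicle plus light 1, 2 or 4 or vehicle 2, 3, 4 or 7 was left out (up to 0.15).

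Of 4 tested co-stimulatory genes, Cd80, Cd40 and Cd274 rose in light damage (1.38 ± 0.28, 0.70 ± 0.20 and 0.64 ± 0.22), Cd80 alone after vehicle (1.10 ± 0.28) and none after nanoceria. Of 5 genes of peptide loading and trimming, none was called without injection or after vehicle, and the trimming peptidase Erap1 (0.44 ± 0.13) and the chaperone Calr (0.31 ± 0.09) rose after nanoceria. Of 4 proteasome activator genes, Psme3 alone was called, after vehicle (0.19 ± 0.06) and after nanoceria (0.20 ± 0.06). The Cd274 call ended without control 1, 2 or 4 or light damage 3, 4, 5 or 7 (edgeR adjusted p up to 0.0962), and that of Psme3 after vehicle without vehicle 4 (0.0523). After nanoceria, Erap1, Calr and Psme3 each lost their call without nanoceria 1 or 2 and without some of the other libraries (up to 0.137). None of these lists had a member called in nanoceria against control. With light, 2 microglia and macrophage markers of 9 were called higher and 2 lower in light damage. Of all genes 11.9% were called higher and 10.6% lower there. From control to light damage, mean P2ry12 went from 2.84 to 1.39 CPM and Tmem119 from 8.58 to 4.88 CPM. Mean Ptprc went from 7.24 to 18.8 CPM and C1qb from 18.8 to 28.3 CPM. After vehicle 1 of the 9 markers was called higher (9.67% of all genes were), and after nanoceria 3 lower (5.78% were). Of 8 T cell markers, 0 were called with light after vehicle or after nanoceria. In light damage 4 of 8 (Cd3e, Cd3d, Cd8a and Cd8b) were called higher, at means of 0.269 to 1.29 CPM, where 11.9% of all genes were called higher. Cd4 made up most of the T cell sum and changed by -0.24 ± 0.20 with no call, while the other 7 summed to 3.26 to 9.65 CPM in light damage against 2.99 to 4.29 CPM in control. The part of these cells in the class I rise was not tested.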

How the data were processed

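Rat retinal polyA RNA was read as 150 bp pairs, per the labels. The authors deposited whole-number counts of reads for each gene, without normalization. Per the submitters' processing notes, Trimmomatic 0.39, STAR 2.7.9a, featureCounts of Subread 2.0.1, DESeq2 1.30.1, R 4.0 and the rn6 build were used. For strand, annotation release and reads that map to several copies the settings were not given in the sources used here, and the last bears directly on the RT1 rows. Counts of 31 of 42 labelled samples were analysed, and 11 were not analysed here. Total counts lay between 25158407 and 182162368 (median 106887932).

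All 31 libraries entered 1 quasi-likelihood fit of edgeR 4.0.16 in R 4.3.3 (robust, TMM scaling, filterByExpr at min.count 10 and min.total.count 15, 1 coefficient per group). Benjamini-Hochberg adjustment ran over 18094 genes, and every adjusted p in the text is from this fit unless named otherwise. Log2 CPM had a prior count of 2. The members and lists were chosen with earlier results of these data known. The 10 members outside the RT1 name were described in all comparisons with the 8 highest RT1 rows, and called RT1 rows by smallest adjusted p. Correlations are of log2 CPM after subtracting group means. Alternatives were DESeq2 1.42.0, limma-voom (limma 3.58.1), other scalings and filters, a replicate block, a term for sex, summed near-identical libraries, and each library left out. Summing the rows of the same name was chosen after seeing the data. Fits were tested on simulated data. Some genes of the marker and pathway lists are not reported here, and the counts given for those lists leave them out.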

Additional observations from a re-analysis of the deposited data

Results flagged for a closer look

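Of 120 groups of values looked at for a library that stands apart from its group, 6 did, where chance gives about 1 in 20. Vehicle plus light 1 was the lowest of its 5 libraries for the summed class I rows, at 359 CPM with the next at 636 CPM, and for RT1-S3, at 54.4 CPM with the next at 105 CPM. Vehicle 1 was the highest of 5 for RT1-A1, at 65.6 CPM with the next at 34.5 CPM. Nanoceria plus light 5 was the highest of 5 for RT1-CE10, at 65.0 CPM with the next at 50.8 CPM. Nanoceria 3 was the highest of 4 for RT1-CE5, at 55.3 CPM with the next at 39.1 CPM, and the lowest of 4 for Ciita, at 19.4 CPM with the next at 25.5 CPM.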

How the results depend on the processing

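Alternatives were run for the 47 members in the 9 comparisons (423 results) and for 88 pathway and marker genes, and no value called in edgeR or in the alternative changed sign; the promoter counts, correlations and non-overlap counts have no alternative. With limma-voom, 15 members were called with light after vehicle (9 in edgeR) and 7 with light after nanoceria (4). It called 28.8% and 20% of all genes there. It also called 8 in nanoceria against control (3 in edgeR) and 6 in nanoceria against vehicle (0), with 7.05% and 8.21% of all genes. In vehicle against control it called 5 (0 in edgeR) and in the vehicle by light interaction 4 (0), with 12.2% and 0.652% of all genes. The Wald test of DESeq2 called 6 members in nanoceria against control (4.03% of all genes) and 2 in the vehicle by light interaction (0.222%). Library size as the scaling gave 5 in nanoceria against control (2.07% of all genes). With 1 library left out, the number called ranged from 11 to 15 in light damage against control (19% to 23.1% of all genes). With light after vehicle it ranged from 6 to 12 (13% to 17.5%). With light after nanoceria it ranged from 2 (without nanoceria 2) to 6 (9.23% to 16.9%). In nanoceria against control it ranged from 0 to 5 (1.12% to 2.37%). In the vehicle by light interaction it ranged from 0 to 1 (0.0277% to 0.116%), and it was 0 in the other 4 comparisons. Between libraries of other groups with the same replicate number, deviations from the group means correlated at a mean of 0.0728 (60 pairs, from -0.353 to 0.381). For other numbers the mean was -0.0128 (338 pairs). Although pairs of the same number were the fewer, 12 of 31 libraries correlated best with one of their own number. The library names give same-numbered libraries neighbouring sample numbers, but no label says that a number marks a shared animal, batch or day, so the numbers were not taken as pairs. With the replicate number as a block, 13 members were called in light damage against control (20.6% of all genes). With light after vehicle 8 were called (15.3%) and with light after nanoceria 6 (12.6%). In nanoceria against control 0 were called (1.02%), in the vehicle by light interaction 1 (0.0276%), and 0 in the other 4. The calls that ended with it were Cd74, RT1-Da and RT1-DMb_1 in nanoceria against control (edgeR adjusted p = 0.12, 0.154 and 0.122), RT1-M6-2 and RT1-N3 in light damage (0.119 and 0.0911), and RT1-CE4 and RT1-M6-1 with light after vehicle (0.0602 and 0.0729). With each near-identical pair summed, 11, 7, 4 and 2 members were called in the 3 light comparisons and in nanoceria against control. The shares of all genes called were 19.7%, 13.3%, 12.9% and 2.17%. The causes of these shifts were not tested. Rows under 1 CPM are limited by depth, and a row with a close copy is limited by how reads were placed, at any depth.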
